A study of Homo sapiens with 16 samples.

Results

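Of the 26229 genes in the deposited count table, 9 integrin subunits were chosen by symbol and followed over all 16 libraries: ITGA2, ITGA5, ITGAV, ITGB1, ITGB2, ITGB3, ITGB5, ITGB6 and ITGB8. The libraries were made from 2 human lines grown in DMEM with serum, A431 (epidermoid carcinoma) and HaCaT (immortalised keratinocytes). Each line has 1 library with control siRNA (siCTRL), 3 with YAP1 siRNA (siYAP), 1 with an empty expression vector and 3 with YAP5SA, an active mutant of YAP. The siRNA cells had no vector and the vector cells no siRNA. The siRNA was transfected on 2 occasions 24 hours apart, and RNA was taken 48 hours after the second. The comparisons asked which of these genes respond to loss and to gain of YAP. Because each control is a single library, the spread between control cultures was not measured and was borrowed from the replicates of the treated groups. The study's methods speak of biological triplicates. The labels list 1 control per arm and do not say whether replicates were separate cultures, so p values measure only the spread between these samples.

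Integrins are cell surface receptors made of 1 alpha and 1 beta chain that bind the extracellular matrix outside the cell and the actin cytoskeleton inside it. The alpha2 chain, paired with beta1, is a collagen receptor of keratinocytes, whereas alpha5 with beta1 binds fibronectin through its RGD sequence. The alphaV chain pairs with beta1, beta3, beta5, beta6 or beta8 to bind RGD ligands such as vitronectin, fibronectin and the latent form of TGF-beta. The beta2 chain is known from leukocytes, where its alpha partners are encoded by ITGAL, ITGAM, ITGAX and ITGAD. In skin, integrins hold basal keratinocytes on the basement membrane, and YAP is a transcriptional co-activator that works with TEAD factors.

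The libraries held 18115624 to 46791673 assigned read pairs. Levels are given as CPM, estimated counts scaled to library size with TMM factors. A count of 0 allows up to 3 counts, or 0.063 to 0.164 CPM here. This limit covers counting error only. YAP1 mRNA fell 16.2-fold with siYAP in A431 cells and 11.5-fold in HaCaT cells, and lay above its control in every YAP5SA library, by 4.36 on the log2 scale in A431 cells (FDR = 0.197, not called) and 4.97 in HaCaT cells (FDR = 0.00208). All 9 keratinocyte markers examined had a mean above 1 CPM in both lines. That level is low. In A431 cells 3 of 4 endothelial, 2 of 5 fibroblast and 2 of 12 leukocyte markers also passed it. In HaCaT cells 2, 3 and 0 of them did. Keratinocyte markers summed to 3539 to 5364 CPM in A431 and to 3014 to 7669 CPM in HaCaT cells. Fibroblast markers summed to 2.45 to 14.4 CPM and to 0.605 to 27.9 CPM. In these bulk samples, fewer cells with a transcript and less of it per cell cannot be told apart.

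All 9 subunits passed the filter of a mean above 10 counts per library, ITGB3 only through its A431 libraries. A gene was called when its false discovery rate (FDR, edgeR quasi-likelihood test, Benjamini-Hochberg over 14673 genes) was under 0.05 and its average log2 CPM above 1. With siYAP in A431 cells 2 of the 9 subunits were called, ITGB5 higher and ITGAV lower, against 5.60% of all genes tested. With siYAP in HaCaT cells 3 were called, ITGB8 and ITGB5 higher and ITGB2 lower, against 5.67% of genes. With YAP5SA in HaCaT cells 3 were called, ITGB2, ITGA5 and ITGB5, all higher, against 13.6% of genes. With YAP5SA in A431 cells the quasi-likelihood test called 0 of the 9 and 0% of all genes. At an unadjusted p under 0.05 that comparison still held 0 of the 9, against 5.64% of genes, and DESeq2 and the edgeR likelihood ratio test also called 0 of them, each calling 0.0204% of genes. Leaving out ITGB3, which had no counts in HaCaT cells, the median log2 fold change of the other 8 was 0.28 with siYAP in A431 and 0.33 with siYAP in HaCaT, where the medians of all genes were 0.029 and 0.028. With YAP5SA it was 0.061 in A431 and -0.0096 in HaCaT, beside 0.020 and 0.013 for all genes.

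**Figure D1:**
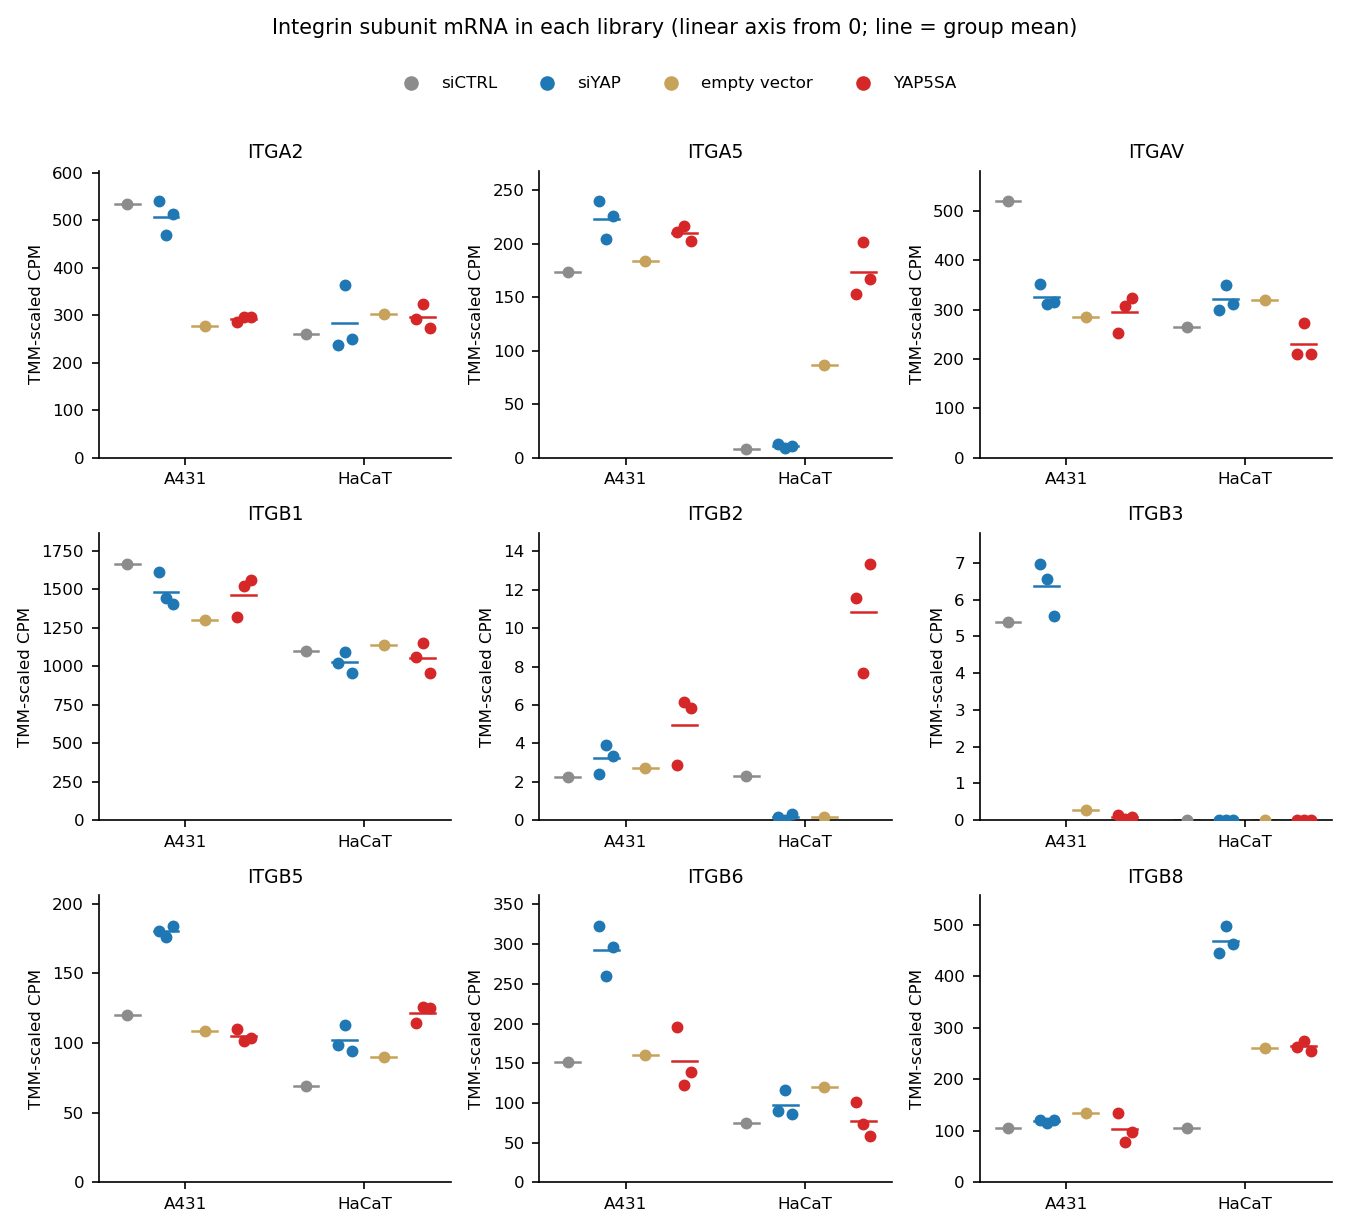
TMM-scaled CPM of each subunit in each library, on a linear axis from 0 that differs between panels, with points for libraries, short lines for group means and colours for treatment (1 siCTRL, 3 siYAP, 1 empty vector and 3 YAP5SA libraries per line). ITGB8 stands at 445 CPM or more in the HaCaT siYAP libraries, ITGA5 at 12.5 CPM or less in the HaCaT siRNA libraries, and ITGB3 at 0 in all HaCaT libraries.

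The shared chain ITGB1 had the highest level per kilobase of transcript of the 9 and was called in no comparison of YAP with its control. In A431 cells it stood at 1667 CPM with siCTRL and at 1611, 1442 and 1404 CPM with siYAP, and at 1301 CPM with the empty vector and 1318, 1520 and 1561 CPM with YAP5SA. In HaCaT cells it stood at 1097 CPM with siCTRL and at 1024, 1095 and 955 CPM with siYAP, and at 1138 CPM with the empty vector and 1060, 1150 and 959 CPM with YAP5SA. All 3 siYAP libraries of each line lay below their single control, but the log2 fold changes were -0.17 (SE 0.15, FDR = 0.573) in A431 and -0.10 (SE 0.15, FDR = 0.786) in HaCaT. With YAP5SA they were 0.17 (SE 0.16, FDR = 0.855) in A431 and -0.11 (SE 0.15, FDR = 0.664) in HaCaT. Per kilobase of transcript, ITGB1 stood at 447 CPM in the A431 siCTRL library, beside 73.8 for ITGAV, 68.0 for ITGA2 and 39.1 for ITGA5.

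ITGA2, the collagen-binding alpha chain, was likewise not called against either control. It stood at 535 CPM in A431 cells with siCTRL and at 540, 469 and 514 CPM with siYAP (log2 fold change -0.08, SE 0.20, FDR = 0.873). With the empty vector it stood at 278 CPM and with YAP5SA at 285, 297 and 295 CPM, a log2 fold change of 0.07 (SE 0.20, FDR = 0.959). The 4 siRNA libraries of A431 cells all lay above its 4 vector libraries, controls included. In HaCaT cells the siCTRL library stood at 260 CPM and the siYAP libraries at 238, 364 and 251 CPM, and the empty vector library at 303 CPM and the YAP5SA libraries at 292, 324 and 274 CPM. There the groups overlapped, with log2 fold changes of 0.13 (SE 0.20, FDR = 0.784) for siYAP and -0.03 (SE 0.20, FDR = 0.929) for YAP5SA.

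ITGA5, the alpha chain of the fibronectin receptor, rose 2.02-fold with YAP5SA in HaCaT cells, and its level there differed most between the siRNA and the vector libraries. In HaCaT cells it stood at 7.98 CPM with siCTRL and at 12.5, 9.43 and 10.6 CPM with siYAP, but at 86.2 CPM with the empty vector and at 153, 202 and 167 CPM with YAP5SA. The 3 YAP5SA libraries all lay above the empty vector library, and the empty vector library lay above every siRNA library. The log2 fold change with YAP5SA was 1.01 (SE 0.18, FDR = 0.00649), and it stayed past the threshold in all 12 fits that each left out 1 treated library. With siCTRL and empty vector pooled as 2 controls it was 1.88 (FDR = 0.0495), still called. That pool joins controls of different arms that stand 10.8-fold apart, so this value mixes YAP5SA with the kind of transfection. With siYAP in HaCaT cells the 3 libraries were above siCTRL, at a log2 fold change of 0.44 (SE 0.20, FDR = 0.229). That sign depends on the control: with the same 2 controls, mixed in the same way, it became -2.13 (FDR = 0.0176). In A431 cells ITGA5 varied little, from 174 CPM with siCTRL to 239, 204 and 226 CPM with siYAP and from 184 CPM with the empty vector to 210, 216 and 203 CPM with YAP5SA. Neither A431 change was called, with log2 fold changes of 0.36 (SE 0.17, FDR = 0.24) and 0.19 (SE 0.17, FDR = 0.855).

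Promoters were taken from RefSeq (GRCh38.p14) for 7 of the 9 genes, with 250 bases before and 50 after the transcription start. The promoters of ITGA5, ITGB1 and ITGB8 are shown because these genes differ most plainly in their response, a rise with YAP5SA, no call and a rise with siYAP. ITGA5 lies on the minus strand (chr12:54419217-54419516), ITGB1 on the minus strand (chr10:32958181-32958480) and ITGB8 on the plus strand (chr7:20330650-20330949), and each is written 5′ to 3′ in the direction of its gene. Capitals mark CATTCC, the core of the TEAD motif (GGAATG where it lies on the other strand), and TGANTCA, the core of the AP-1 motif, both searched on both strands.
ITGA5: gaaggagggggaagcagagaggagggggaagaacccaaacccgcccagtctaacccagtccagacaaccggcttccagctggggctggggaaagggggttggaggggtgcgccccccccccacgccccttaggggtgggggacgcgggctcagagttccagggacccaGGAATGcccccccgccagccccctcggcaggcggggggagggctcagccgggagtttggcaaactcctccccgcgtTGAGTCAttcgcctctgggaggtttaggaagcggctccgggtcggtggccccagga
ITGB1: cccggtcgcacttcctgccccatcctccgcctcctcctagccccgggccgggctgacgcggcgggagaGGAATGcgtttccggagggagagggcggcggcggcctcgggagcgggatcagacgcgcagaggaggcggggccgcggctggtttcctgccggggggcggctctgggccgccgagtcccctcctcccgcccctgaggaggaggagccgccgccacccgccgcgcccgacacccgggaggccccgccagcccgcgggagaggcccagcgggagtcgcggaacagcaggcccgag
ITGB8: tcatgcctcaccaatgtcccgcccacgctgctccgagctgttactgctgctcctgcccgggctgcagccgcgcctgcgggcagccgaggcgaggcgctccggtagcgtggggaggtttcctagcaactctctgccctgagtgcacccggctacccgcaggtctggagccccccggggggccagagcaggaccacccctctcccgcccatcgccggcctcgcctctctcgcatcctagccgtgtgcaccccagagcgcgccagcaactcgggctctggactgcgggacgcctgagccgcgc
In ITGA5 the TEAD core lies at -82 and the AP-1 core at -6 from the start, in ITGB1 a TEAD core lies at -182, and the ITGB8 window has neither. None of the other 8 promoters of these 7 genes had either motif. They include another promoter of ITGB1 and those of ITGB5, which was also called higher with YAP5SA in HaCaT cells. Among 35116 RefSeq promoters of the same length, 14.03% held CATTCC and 7.71% TGANTCA on either strand. A match is a description of these letters and not a binding site.

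ITGAV, the alpha chain of the RGD receptors with beta3, beta5, beta6 and beta8, fell 1.59-fold with siYAP in A431 cells. It stood there at 519 CPM with siCTRL and at 352, 310 and 315 CPM with siYAP, so that all 3 siYAP libraries lay below the control. The log2 fold change was -0.67 (SE 0.17, FDR = 0.0426). The call rests on the single siCTRL library: the empty vector library of the same line stood at 284 CPM, below all 3 siYAP libraries, and with both controls together the log2 fold change was -0.30 (FDR = 0.563). It was also kept in only 4 of the 12 fits that left out 1 treated library, with an FDR of up to 0.117, and was lost without any 1 of the A431 siYAP replicates 1 to 3, A431 YAP5SA replicates 2 and 3, HaCaT siYAP replicates 1 and 3 and HaCaT YAP5SA replicate 3. With YAP5SA the A431 libraries stood at 252, 307 and 324 CPM, on both sides of the empty vector (log2 fold change 0.05, SE 0.18, FDR = 0.973). In HaCaT cells ITGAV stood at 264 CPM with siCTRL and at 300, 350 and 311 CPM with siYAP, and at 318 CPM with the empty vector and 211, 273 and 209 CPM with YAP5SA. All siYAP libraries lay above their control and all YAP5SA libraries below theirs, but neither log2 fold change was called (0.28, SE 0.18, FDR = 0.444, and -0.46, SE 0.18, FDR = 0.0917).

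ITGB5, the beta chain of a vitronectin receptor, was called in both lines with siYAP and rose by a similar amount in each. In A431 cells it stood at 120 CPM with siCTRL and at 181, 176 and 184 CPM with siYAP (log2 fold change 0.59, SE 0.13, FDR = 0.0214). In HaCaT cells it stood at 69.3 CPM with siCTRL and at 98.6, 113 and 94.1 CPM with siYAP (log2 fold change 0.56, SE 0.13, FDR = 0.0252). Every siYAP library lay above its control in both lines. The A431 call was lost without A431 siYAP replicate 1 or 3, at an FDR of up to 0.0634, and the HaCaT call when HaCaT cells were fitted alone (0.53, FDR = 0.129), with 2 controls (0.36, FDR = 0.0761) and with no filter on counts (0.55, FDR = 0.0603). With YAP5SA the lines differed in what was called. The A431 libraries stood at 110, 101 and 103 CPM beside 108 CPM with the empty vector (log2 fold change -0.05, SE 0.13, FDR = 0.959). The HaCaT libraries stood at 115, 126 and 125 CPM, all above the 89.9 CPM of the empty vector (log2 fold change 0.44, SE 0.13, FDR = 0.0396). That last call was kept in 5 of 12 fits without 1 treated library, with an FDR of up to 0.0833, and was lost without A431 siYAP replicate 2 or 3, A431 YAP5SA replicate 2 or 3, HaCaT siYAP replicate 1 or HaCaT YAP5SA replicate 2 or 3. The same call was also lost when HaCaT cells were fitted alone and with no filter on counts, with an FDR of up to 0.113 over all settings. The difference of the YAP5SA effect between the lines was 0.49 (SE 0.18, FDR = 0.145).

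ITGB6, the epithelial partner of alphaV that activates latent TGF-beta, had the largest rise of the 9 with siYAP in A431 cells by size, but was not called. It stood at 151 CPM with siCTRL and at 323, 260 and 296 CPM with siYAP, all above the control (log2 fold change 0.95, SE 0.31, FDR = 0.0931). DESeq2 and the likelihood ratio test called it, where they called 9.75% and 8.82% of all genes. The empty vector library of A431 cells stood at 160 CPM and the YAP5SA libraries at 195, 123 and 139 CPM, on both sides of it (log2 fold change -0.08, SE 0.29, FDR = 0.978). In HaCaT cells the siCTRL library stood at 75.2 CPM and the siYAP libraries at 89.6, 117 and 85.6 CPM, and the empty vector library at 120 CPM and the YAP5SA libraries at 101, 73.8 and 58.0 CPM. The log2 fold changes there, 0.37 (SE 0.30, FDR = 0.555) and -0.62 (SE 0.28, FDR = 0.154), were not called. Every treated library lay on 1 side of its control, which carries little weight with 1 control library. ITGB6 shares 966 exon bases with AC092153.1, which lies on the same strand and was not counted separately.

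ITGB8, the other partner of alphaV that activates latent TGF-beta, rose 4.45-fold with siYAP in HaCaT cells and was not called in A431 cells. In HaCaT cells it stood at 105 CPM with siCTRL and at 445, 498 and 462 CPM with siYAP. All siYAP libraries lay far above the single siCTRL library, whose spread was not measured. The log2 fold change was 2.15 (SE 0.24, FDR = 0.000425). It was called in all 12 fits without 1 treated library and in every other setting tried. Those 12 fits all kept the siCTRL library, and many left out a library outside this comparison. They therefore cannot show how far the call rests on that control. With 2 controls the log2 fold change was smaller, at 1.35 (FDR = 0.00912). The empty vector library of HaCaT cells stood at 262 CPM and the YAP5SA libraries at 263, 275 and 254 CPM, between the siCTRL and siYAP levels, with a log2 fold change of 0.01 (SE 0.21, FDR = 0.976). In A431 cells the siCTRL library also stood at 105 CPM, and the siYAP libraries at 122, 115 and 122 CPM (log2 fold change 0.19, SE 0.21, FDR = 0.654). The A431 empty vector library stood at 135 CPM and the YAP5SA libraries at 135, 78.5 and 97.1 CPM (log2 fold change -0.38, SE 0.21, FDR = 0.803).

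ITGB3, the partner of alphaV best known from platelets and endothelium, was detected in A431 cells only among these libraries. It had counts of 110 with siCTRL and of 332, 190 and 111 with siYAP, or 5.39 CPM beside 6.98, 6.55 and 5.54 CPM (log2 fold change 0.24, SE 0.44, FDR = 0.808). In the A431 vector libraries it had counts of 6 with the empty vector and of 3, 1 and 3 with YAP5SA, an FDR of 0.803. All 8 HaCaT libraries had 0 counts, so no fold was computed within HaCaT cells. Summed over libraries, the ratio of siYAP to YAP5SA in A431 cells was 78.3 (95% exact interval of the counts 37.8 to 196), and that of siCTRL to empty vector was 19.6 (8.70 to 54.4). These intervals cover counting error only, the second ratio sets 1 library against 1 and has no test, and counts of replicate libraries vary beyond sampling noise. The A431 siCTRL level was at least 32.9-fold higher than the 3 counts that the HaCaT siCTRL library allows. The platelet markers GP9, PF4 and PPBP had no counts in either line. The endothelial markers summed to 3.88 to 33.8 CPM in A431 cells and to 1.18 to 59.2 CPM in HaCaT cells. CDH5, the highest of them, stood at 31.1 CPM in the A431 siCTRL library and at 51.8 CPM in the HaCaT siCTRL library, where ITGB3 had 0 counts. Of the 3 endothelial markers tested, CDH5 was the 1 called between YAP5SA and siYAP in A431 cells (log2 difference -3.82), and the median of the 3 was -0.56. Their part in the ITGB3 result was not tested. ITGB3 shares 2266 exon bases with AC068234.1, a protein-coding gene on the same strand that was not counted separately. Reads of this pair cannot be told apart in that stretch.

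ITGB2, the leukocyte beta chain, was a low transcript that fell with siYAP and rose with YAP5SA in HaCaT cells. It stood there at 2.29 CPM with siCTRL (estimated count 42.26) and at 0.155, 0 and 0.331 CPM with siYAP (4, 0 and 10.39), and the count of 0 allows up to 0.146 CPM. It stood at 0.159 CPM with the empty vector (5) and at 11.6, 7.67 and 13.4 CPM with YAP5SA (451.54, 266.96 and 523.96). All siYAP libraries lay below siCTRL and all YAP5SA libraries far above every other HaCaT library. The log2 fold changes were -3.66 with siYAP (SE 0.71, FDR = 0.0101) and 6.06 with YAP5SA (SE 0.91, FDR = 0.00331), and both were called in all 12 fits without 1 treated library. Under a filter of more than 10 counts in every library ITGB2 was not tested, because HaCaT siYAP and empty vector libraries fall short. The single controls differ from each other, since the siCTRL library was 14.4-fold above the empty vector library, which lay within the range of the siYAP libraries. With both controls together the siYAP value was -2.69 (FDR = 0.0503), not called, and the YAP5SA value was 3.23 (FDR = 0.0231), still called. In A431 cells ITGB2 stood at 2.25 CPM with siCTRL, 2.42, 3.93 and 3.35 CPM with siYAP, 2.71 CPM with the empty vector and 2.88, 6.17 and 5.84 CPM with YAP5SA. Neither A431 change was called, with log2 fold changes of 0.51 (SE 0.62, FDR = 0.686) and 0.88 (SE 0.61, FDR = 0.831).

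The alpha partners of beta2 had low levels. ITGAL, ITGAM, ITGAX and ITGAD summed to 0.172 to 0.332 CPM in the HaCaT YAP5SA libraries and to at most 2.70 CPM anywhere. The 12 leukocyte markers summed to 2.84 to 7.44 CPM in A431 cells and to 1.27 to 2.84 CPM in HaCaT cells, with SPI1 at 0 in all libraries. The 4 of them that could be tested had a median log2 fold change of 3.40 with YAP5SA in HaCaT cells, and the quasi-likelihood test called 0 of them. That median rests on the single empty vector library. Set against the HaCaT siYAP libraries instead, the YAP5SA libraries had a median of -0.64 over these 4, again with 0 called. CORO1A, an actin-binding protein of leukocytes and 1 of these 4, had a log2 fold change of 4.51 against the empty vector (FDR = 0.0122). Its average level was too low for a call, so it is named outside the rule for lists. Like the median of 3.40, its value rests on the single empty vector library. The part of the leukocyte markers in the ITGB2 result was not tested. ITGB2 shares 303 exon bases with ITGB2-AS1 on the opposite strand, and the sources used here do not state a stranded protocol, so reads of the pair cannot be told apart in that stretch. ITGB2-AS1 had estimated counts of 44.46, 36.04 and 63.04 with YAP5SA in HaCaT cells, 4 with the empty vector, 6.74 with siCTRL and 10, 9 and 7.61 with siYAP.

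**Figure D2:**
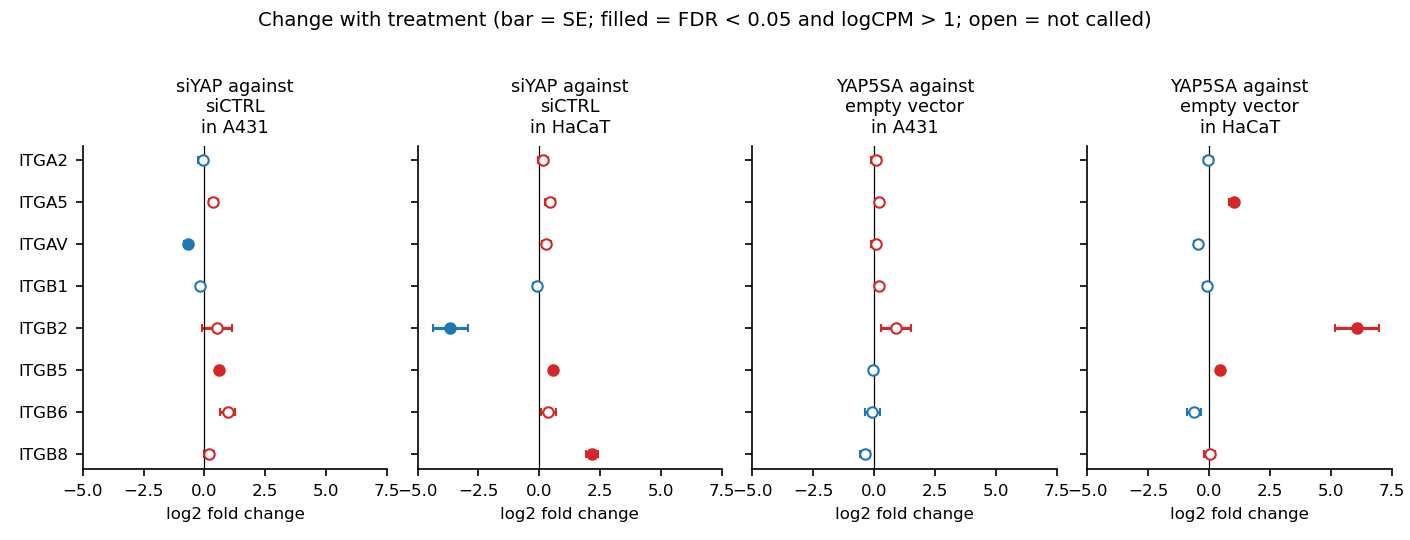
Log2 fold change (horizontal axis) of 8 subunits in each comparison of a treatment with its control, with bars for the SE, filled points for called genes and open points for those not called. ITGB2 in HaCaT cells moves most, -3.66 with siYAP and 6.06 with YAP5SA, and no point is filled for YAP5SA in A431 cells.

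Whether an effect differed between A431 and HaCaT cells was tested directly. For siYAP 1 of the 9 subunits was called, ITGB8, against 0.170% of genes, with an effect larger by 1.96 on the log2 scale in HaCaT cells (SE 0.30, FDR = 0.0321). That call was kept in 5 of the 12 fits without 1 treated library, with an FDR of up to 0.0848 and a value between 1.92 and 2.0. It was lost without any 1 of the siYAP libraries of either line or without A431 YAP5SA replicate 3, and with 2 controls it was 1.35 (FDR = 0.157). The siYAP effect on ITGB2 was lower in HaCaT cells by 4.17 (SE 0.98, FDR = 0.12) and that on ITGAV higher by 0.95 (SE 0.26, FDR = 0.162), neither called. For YAP5SA the quasi-likelihood test called 0 of the 9 against 0.0886% of genes, with 3 at an unadjusted p under 0.05 against 22.4% of genes. DESeq2 and the likelihood ratio test each called 2, ITGA5 and ITGB2, where they called 6.43% and 5.30% of all genes. The YAP5SA effect was larger in HaCaT cells by 5.18 for ITGB2 (SE 1.04, FDR = 0.0533) and by 0.82 for ITGA5 (SE 0.24, FDR = 0.092).

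Averaged over both lines, 3 subunits were called with siYAP against 13.0% of genes: ITGB8 (log2 fold change 1.17, SE 0.16, FDR = 0.000604), ITGB5 (0.57, SE 0.09, FDR = 0.00189) and ITGB2 (-1.57, SE 0.47, FDR = 0.0433). Of these, ITGB5 was also called in both lines separately. The ITGB2 average joins values of opposite sign, -3.66 in HaCaT and 0.51 in A431 cells, and that of ITGB8 joins 2.15 in HaCaT and 0.19 in A431 cells. ITGB2 was kept in 4 of 12 fits without 1 treated library, with an FDR of up to 0.0846. It was lost without any 1 of the A431 siYAP replicates, A431 YAP5SA replicates 2 and 3, HaCaT siYAP replicates 1 and 2 and HaCaT YAP5SA replicate 3. The ITGB2 call was also lost with siCTRL and empty vector as 2 controls. With YAP5SA 2 subunits were called against 2.04% of genes, ITGB2 (3.47, SE 0.55, FDR = 0.0126) and ITGA5 (0.60, SE 0.12, FDR = 0.034). ITGA5 was kept in 6 of 12 such fits, with an FDR of up to 0.0716. It was lost without A431 siYAP replicate 2 or 3, A431 YAP5SA replicate 2 or 3, HaCaT siYAP replicate 3 or HaCaT YAP5SA replicate 3.

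YAP5SA and siYAP libraries can be set against each other with 3 replicates on both sides, but the kind of transfection differs together with YAP, and these cannot be told apart here. In A431 cells 3 subunits were called, all lower with YAP5SA, against 34.6% of genes: ITGB5 by -0.78 on the log2 scale (SE 0.09, FDR = 4.16e-05), ITGA2 by -0.79 (SE 0.14, FDR = 0.000925) and ITGB6 by -0.95 (SE 0.21, FDR = 0.00358). For each of these 3 the groups did not overlap, and the share of all genes that do the same was not counted. ITGB3 was lower by -6.18 (FDR = 2.0e-05) and was not called because its average log2 CPM was 0.71. By FDR alone 4 subunits were called, against 37.2% of genes, and ITGB3 was also called when A431 cells were fitted alone (-6.17, FDR = 4.69e-05). In HaCaT cells 5 were called against 60.0% of genes. ITGA5 was higher with YAP5SA by 4.001 (SE 0.14, FDR = 6.99e-10), ITGB2 by 5.90 (SE 0.56, FDR = 8.67e-07) and ITGB5 by 0.26 (SE 0.09, FDR = 0.0203). ITGAV was lower by -0.47 (SE 0.13, FDR = 0.00531) and ITGB8 by -0.83 (SE 0.15, FDR = 0.000276). The ITGB5 call was lost without HaCaT siYAP replicate 1 or 3 or HaCaT YAP5SA replicate 3, at an FDR of up to 0.0785.

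The single control libraries of the siRNA and vector arms were also set beside each other. In HaCaT cells the empty vector library stood 10.8-fold above siCTRL for ITGA5 and 2.49-fold above it for ITGB8. In A431 cells the siCTRL library stood 1.92-fold above the empty vector library for ITGA2 and 1.83-fold above it for ITGAV. With 1 library each these ratios have no test. Over all 8 libraries of a line, the 4 siRNA and the 4 vector libraries did not overlap for 3 of the 9 subunits in A431 cells (ITGA2, ITGB3 and ITGB5), beside 29.04% of all genes tested, and for 1 in HaCaT cells (ITGA5), beside 55.1%.

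**Figure D3:**
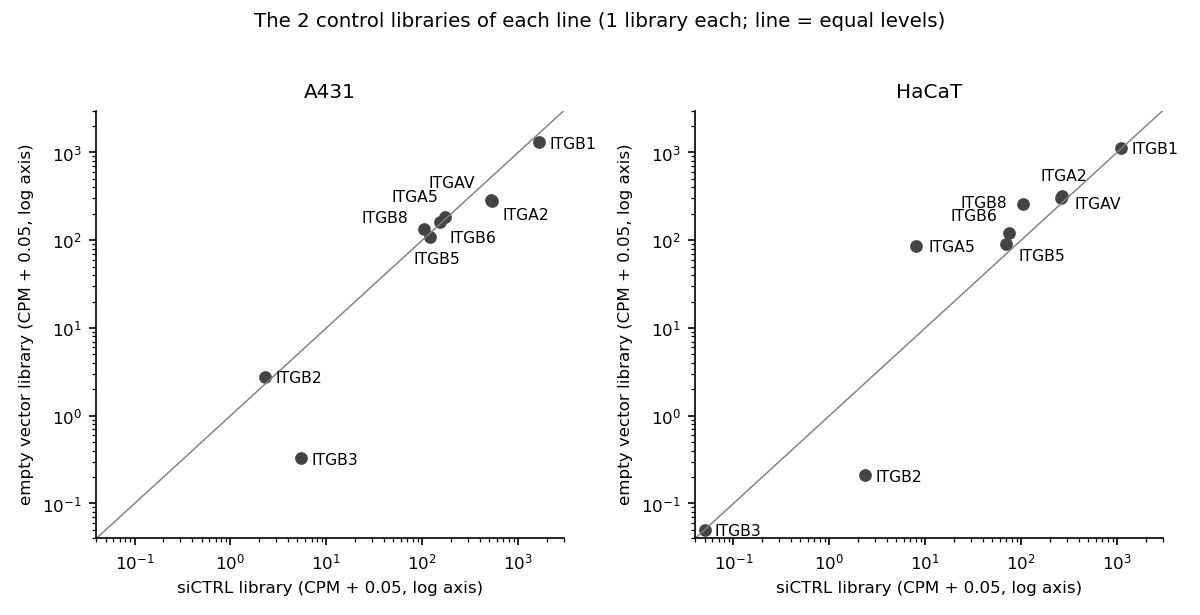
CPM of each subunit in the siCTRL library (horizontal) and the empty vector library (vertical) of each line, both plus 0.05 and on log axes, with a line where they are equal. In HaCaT cells ITGA5 lies far above the line and ITGB2 below it, and in A431 cells ITGB3 lies below it.

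Between the lines, averaged over the 4 treatments, 8 of the 9 subunits were called against 60.6% of genes. ITGB8 was the 1 that was higher in HaCaT cells, by 1.07 on the log2 scale (SE 0.11, FDR = 1.12e-06). The other 7 were lower there, most of all ITGA5 by -2.54 (SE 0.10, FDR = 1.24e-10), ITGB2 by -1.76 (SE 0.36, FDR = 0.00063) and ITGB6 by -0.998 (SE 0.15, FDR = 4.88e-05). ITGB1 was lower by -0.45 (SE 0.08, FDR = 0.000161), ITGA2 by -0.43 (SE 0.10, FDR = 0.00168), ITGB5 by -0.42 (SE 0.06, FDR = 5.59e-05) and ITGAV by -0.30 (SE 0.09, FDR = 0.0104). These averages hide the treatments: among YAP5SA libraries alone ITGA5 differed by -0.27 (FDR = 0.0676), ITGA2 by 0.020 (FDR = 0.915) and ITGB5 by 0.22 (FDR = 0.0537), none of them called, and ITGB2 was higher in HaCaT cells by 1.13 (FDR = 0.0261). Among siYAP libraries alone ITGA5 differed by -4.36 (FDR = 1.22e-10) and ITGB2 by -4.14 (FDR = 2.17e-05), ITGB8 was higher in HaCaT cells by 1.97, and ITGAV was not called (-0.02, FDR = 0.876). ITGB3, with 0 counts in HaCaT cells, had an average log2 CPM of 0.71, below the level a call needs, and by FDR alone it joined the other 8 as called, against 69.5% of genes.

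Other genes of the integrin system were counted from lists. Of 17 other integrin subunits 9 could be tested. With siYAP ITGB4, the hemidesmosome beta chain, was the 1 called in A431 cells (log2 fold change 0.89) and ITGA4 the 1 called in HaCaT cells (1.98), both higher, where 5.60% and 5.67% of all genes were called. With YAP5SA in HaCaT cells 2 of the 9 were called higher, ITGA3 (0.98) and ITGB4 (1.22), against 13.6% of all genes, and in A431 cells 0. Of 24 ligands 18 could be tested. In HaCaT cells 8 of the 18 were called with YAP5SA, 7 higher and 1 lower, against 13.6% of all genes, from CTGF (2.98), a matricellular YAP target, to EDIL3 (-1.77), with a median of 0.93 over the 18 beside 0.013 over all genes. With siYAP 1 of the 18 ligands was called in each line, against 5.60% of all genes in A431 and 5.67% in HaCaT cells. They were SPP1 in A431 cells (2.98) and MFGE8 in HaCaT cells (1.75), both secreted RGD proteins and both higher. Of 12 genes whose products act on integrins from inside the cell, activators and inhibitors alike, 10 could be tested. With siYAP in HaCaT cells 1 of the 10 was called, FERMT2 (1.01), a kindlin that activates integrins, against 5.67% of all genes. With YAP5SA in HaCaT cells 1 of the 10 was called, FLNA (1.44), a filamin that binds beta tails, against 13.6% of all genes. Both were higher. With YAP5SA in A431 cells none of the ligands or of these 10 genes was called, as for all genes.

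The genes whose pattern was most like each subunit were ranked by Pearson correlation of log2(CPM + 0.5), centred within each line, over 16 libraries and 12226 candidate genes. Libraries of 1 arm share their transfection, so these are descriptions without a test. For ITGA5 they were SLC39A8 (r = 0.991) and NUPL1 (0.988), and for ITGB2 MRPL4 (0.963) and LY6K (0.957). ITGB5 was nearest to PROCR (0.940) and PLEKHA7 (0.929), and ITGA2 to NUPR1 (0.934) and NAP1L1 (0.925). ITGB6 came closest to ZNF700 (0.918) and GGPS1 (0.917), ITGB8 to MTMR11 (0.908) and TUBA1A (0.899), ITGAV to CRNDE (0.846) and AHR (0.832) and ITGB1 to RSL24D1 (0.807) and RAB3GAP1 (0.787).

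**Figure D4:**
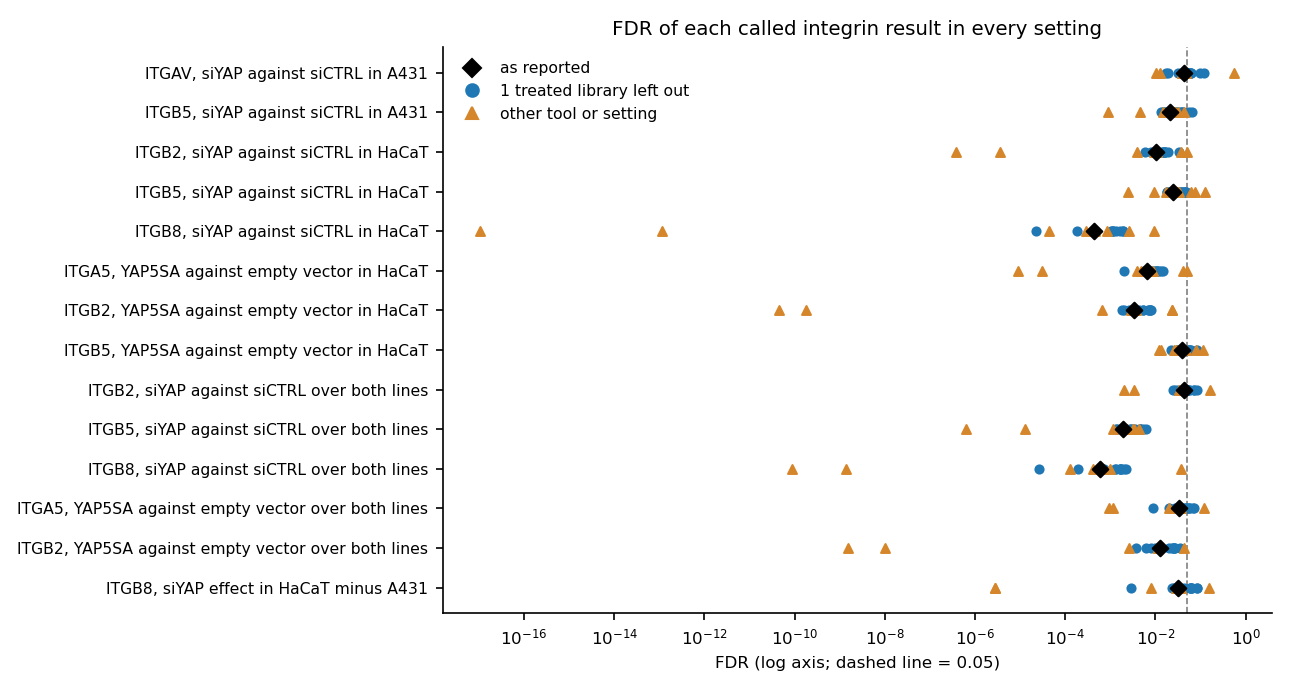
FDR (log axis) of each called subunit in the comparisons of a treatment with its control and in their difference between lines, as reported (diamonds), with 1 treated library left out (circles) and under other tools or settings (triangles), beside a dashed line at 0.05. ITGB8 with siYAP in HaCaT cells stays left of the line in every setting, while ITGAV with siYAP in A431 cells crosses it. No circle leaves out a control library.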

How the data were processed

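RNA-seq of A431 and HaCaT cells was analysed from the 1 table the authors deposited, which holds estimated counts per gene for 16 libraries. The authors trimmed the paired reads and ran RSEM against RefSeq models, and edgeR is also named in the submitters' processing notes, as is the hg19 build. The RSEM version is given as 1.2.11 in those notes and differently in the paper. Groups and replicate numbers were taken from the labels.

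The estimated counts were rounded, those with an average of more than 10 per library stayed in (14673 genes), and TMM factors were applied. The quasi-likelihood test of edgeR 4.0.16 (R 4.3.3) was fitted to 8 groups with 8 residual degrees of freedom, and Benjamini-Hochberg FDR was computed over all genes. The standard error is the log2 fold change divided by the square root of F. Alternatives used DESeq2 1.42.0, the likelihood ratio test, RLE size factors, other count filters, FDR alone, each line alone, siYAP or YAP5SA libraries alone for the line difference, 2 controls, a replicate block and each treated library left out. The scripts were tested on simulated data.

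All 9 subunits are named in every comparison. Besides these, the rule names YAP1, the 2 genes most like each subunit and, of each list, the called genes with the lowest and highest fold change. The members, lists and tests were chosen with earlier results of these data known. Same-numbered treated libraries did not pair as a whole: 6 of 18 same-number correlations of deviations were over 0.1 (range -0.064 to 0.398). All 3 between YAP5SA libraries of the 2 lines were (0.398, 0.162 and 0.162), beside 0.323 for A431 replicate 2 with HaCaT replicate 3, and the block changed no call in comparisons with YAP5SA. Counts of every replicate pair differed by more than sampling noise. ITGB2 and ITGB3 promoters were not in the RefSeq table, and gene positions on hg19 were not used here. Figures were drawn in Python 3.11.15 with matplotlib 3.10.9.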

Additional observations from a re-analysis of the deposited data

Results flagged for a closer look

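The siYAP effect on ITGB8 differed between the lines by a test of the difference itself. It was larger in HaCaT than in A431 cells by 1.96 on the log2 scale (SE 0.30, FDR = 0.0321, edgeR quasi-likelihood test). That call was kept in 5 of the 12 fits without 1 treated library, with an FDR of up to 0.0848. It was lost without any 1 of the siYAP libraries of either line. All 3 siYAP libraries of HaCaT cells lay above their control, at 445, 498 and 462 beside 105 CPM, and those of A431 cells stood at 122, 115 and 122 beside 105 CPM. The empty vector library of HaCaT cells, at 262 CPM, also lay above siCTRL, and the part of the single siCTRL library in the result was not tested beyond the fit with 2 controls, which gave 1.35 (FDR = 0.157).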

How the results depend on the processing

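Each control is 1 library, so no control could be left out, and the counts called move with that limit. Leaving out each of the 12 treated libraries in turn gave 0 to 3 subunits for siYAP in A431 (2 as reported), 2 to 5 for siYAP over both lines (3), 1 to 2 for YAP5SA over both lines (2), 0 to 1 for the difference of the siYAP effect (1) and 0 to 2 for that of the YAP5SA effect (0). For YAP5SA in HaCaT these fits called ITGB5 in 5 of 12, and added ITGAV in 1 and ITGB6 in 1. For YAP5SA against siYAP in HaCaT they called ITGB5 in 9 of 12, and added ITGA2 in 1 and ITGB6 in 1. In A431 that comparison added ITGB8 in 1. DESeq2 and the likelihood ratio test each called 5 for siYAP over both lines (16.9% and 16.2% of all genes), 3 and 2 for the difference of the siYAP effect and 2 each for that of the YAP5SA effect, for which RLE size factors and no filter gave 1. More than 10 counts in every library removed ITGB2 and ITGB3 before testing, so no ITGB2 call could be kept there. It left 1 for YAP5SA over both lines (ITGA5) and 3 for YAP5SA against siYAP in HaCaT (ITGA5, ITGAV and ITGB8). With that filter ITGB5 and ITGB8 remained for siYAP in HaCaT and ITGA5 and ITGB5 for YAP5SA in HaCaT. For siYAP over both lines ITGB6 joined ITGB5 and ITGB8, and the line difference kept all but ITGB2. With 2 controls siYAP in A431 gave 1, YAP5SA over both lines 1 and the difference of the siYAP effect 0, and the line difference among YAP5SA libraries alone gave 5 in place of 8. For siYAP over both lines 2 controls left ITGB5 and ITGB8, and for siYAP in HaCaT they gave ITGA5 and ITGB8. The replicate block gave 4 for siYAP over both lines, adding ITGB6, and changed no other call. RLE size factors moved no median of all genes by over 0.1.

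Log2 fold changes that changed sign, in most cases near 0, were these. With 2 controls ITGA5 with siYAP became -2.13 in HaCaT (FDR = 0.0176), -0.90 over both lines and -2.44 for the difference between lines. ITGA2 became 0.32 with siYAP in A431, -0.47 with YAP5SA in A431 and 0.076 with YAP5SA in HaCaT. ITGAV became -0.45 with YAP5SA in A431 and 0.11 for the YAP5SA difference, and ITGB1 0.0016 with siYAP and -0.017 with YAP5SA in A431. ITGB8 became -0.0022 with siYAP in A431 and 0.16 with YAP5SA over both lines, and ITGB6 -0.0011 with siYAP in HaCaT. Among YAP5SA libraries alone the line difference became 0.020 for ITGA2, 1.13 for ITGB2 and 0.22 for ITGB5. With no filter ITGB1 became 0.0038 for YAP5SA against siYAP in A431, and with more than 10 counts in every library ITGA2 became 0.0023 with YAP5SA in HaCaT and ITGB1 -0.015 for YAP5SA against siYAP in HaCaT. Leaving out 1 treated library, the ranges that crossed 0 were -0.099 to 0.022 for ITGA2 with YAP5SA in HaCaT, -0.087 to 0.25 for ITGA2 with siYAP in HaCaT, -0.056 to 0.28 for ITGA2 and -0.020 to 0.11 for ITGB1 in YAP5SA against siYAP in HaCaT, -0.066 to 0.053 for ITGB1 in that comparison in A431, -0.028 to 0.17 for the ITGA5 siYAP difference, -0.024 to 0.15 for ITGAV and -0.29 to 0.058 for ITGB6 with YAP5SA in A431, and -0.015 to 0.040 for ITGB8 with YAP5SA in HaCaT. The cause was not tested.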
